A study of Mus musculus with 4 samples.

Results

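Colorectal tissue without polyps from germ-free Clec7a-/- mice (KO) was compared with the same tissue from germ-free wild-type mice (WT), gene by gene, in 2 of the 4 RNA-seq libraries of the study. All mice, WT and KO, had been raised without microbes and were given the carcinogen azoxymethane (AOM) and then 3 cycles of 1% dextran sodium sulfate (DSS), which injures the lining of the colon, and tissue was taken at week 36. The other 2 libraries came from tissue labelled as polyps of each genotype and serve here only to place the non-polyp differences. The study describes germ-free KO mice as free of polyps, so what tissue the library labelled KO polyp held is not known, and KO polyps names that library below. The KO allele had been backcrossed to C57BL/6J. WT animals were bought germ-free, whereas KO animals were made germ-free by caesarean birth and fostered by WT dams in an isolator, so genotype and source of the animals cannot be told apart. Each library pooled the RNA of several mice, and the sources differ on whether 4 or 5 WT mice were used. Every value therefore has 1 library behind it, with no replicate error, no standard deviation and no test, and a difference is one between pools. By the methods for this treatment, mice were 6 to 7 weeks old when given AOM.

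Levels are TPM (transcripts per 1000000 transcripts), and a ratio is the log2 ratio of TPM + 1, KO minus WT, which understates the change of scarce genes. A gene was called higher or lower in KO tissue where this ratio was above 1 or below -1. Of 54621 gene names in the series, 54595 were listed in both non-polyp libraries and were compared. In bulk tissue, fewer cells of a type and less RNA per cell cannot be told apart.

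Clec7a encodes Dectin-1, a C-type lectin receptor of dendritic cells, macrophages and neutrophils that binds beta-glucans of fungal and yeast cell walls and signals through the kinase Syk and the adaptor Card9. Colon lining at rest is made of crypts that hold stem cells, mucus-secreting goblet cells and absorptive colonocytes, with IgA-secreting plasma cells in the connective tissue beneath. Paneth cells, which release defensins and lysozyme, belong to the small intestine and are scarce in normal mouse colon.

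The targeted gene was examined first. Clec7a (ENSMUSG00000079293, chr6:129461591-129472779, minus strand, GRCm38; listed as a polymorphic pseudogene in GENCODE M21) stood at 0.0766 TPM in KO and 5.97 TPM in WT non-polyp tissue, a ratio of -2.69. In the polyp libraries it stood at 0.102 TPM in KO and 31.2 TPM in WT. Both KO libraries were therefore low, as their labels say. Of 15 genes of Dectin-1 and its signalling route, Clec7a was the 1 called lower and 0 were called higher, with a list median of -0.06. Syk stood at 17.9 TPM in KO and 18.1 TPM in WT tissue, Card9 at 2.23 and 1.63 TPM, and Fcer1g, which carries the signal of the related receptor Dectin-2, at 28.7 and 30.0 TPM. Lgals9, the Dectin-1 ligand galectin-9, stood at 62.4 TPM in KO and 74.3 TPM in WT tissue.

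Both libraries carried the markers of colon wall. The epithelial genes Epcam (1739 TPM in KO, 1338 TPM in WT) and Vil1 (344 and 328 TPM), the mucin gene Muc2 (712 and 801 TPM) and the hindgut transcription factor gene Hoxb13 (423 and 415 TPM) were abundant in both. The smooth muscle myosin gene Myh11, at 329 TPM in KO and 343 TPM in WT, placed muscle wall in both samples. Summed TPM of the compared genes was 889323 in KO and 860905 in WT tissue, and 16810 and 16745 names reached 1 TPM. Read counts are not given, so the depth is unknown and no counting interval can be set.

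KO tissue was higher in 415 of all names (0.76%) and lower in 347 (0.636%). All called names reached 1 TPM in at least one of the pair, and over the 17522 names that did so the shares were 2.37% higher and 1.98% lower, with a median ratio of 0.03. Many called names were scarce, since 424 of the 762 stayed under 5 TPM in the higher library. Short RNA genes made up 181 of the called names (119 higher, 62 lower). Of 376 microRNA genes at 1 TPM, 59 were higher and 31 lower, and of 233 small nucleolar RNA genes 30 were higher and 16 lower. Protein-coding genes accounted for 139 of the higher and 189 of the lower names, out of 13639 at 1 TPM. Both short RNA classes were thus called more often than protein-coding genes. The plot of ratio against level shows where these names lie.

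**Figure D1:**
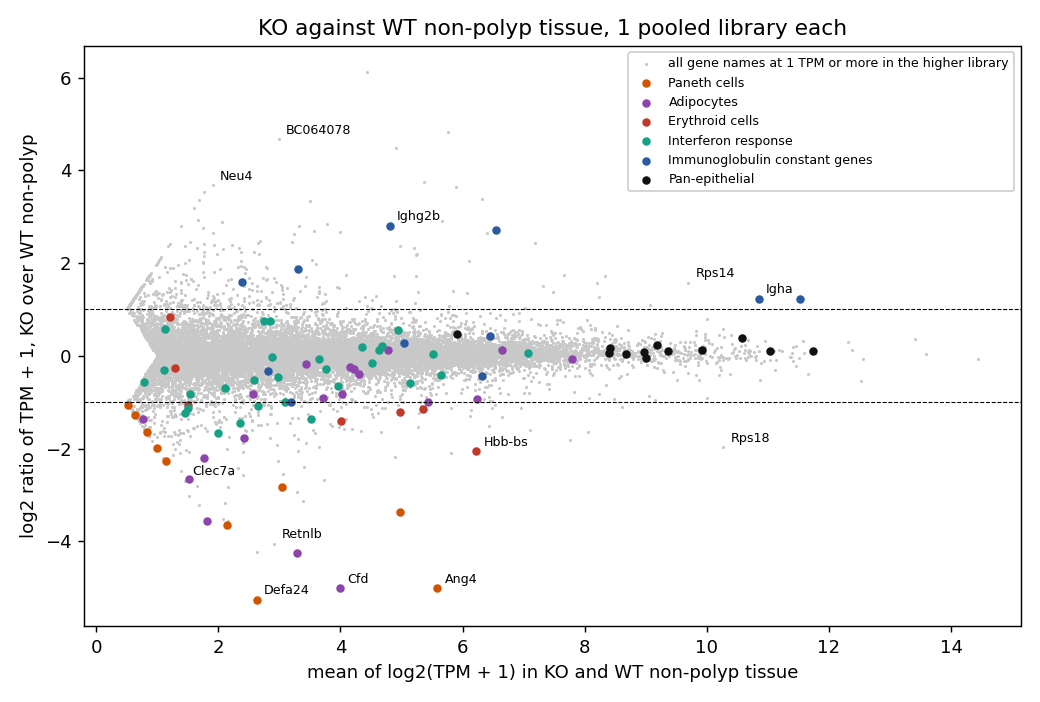
Log2 ratio of TPM + 1, KO minus WT non-polyp tissue, against the mean of log2(TPM + 1) in both libraries, 1 point per gene name that reached 1 TPM, with members of 6 gene lists coloured and the threshold of 1 in either direction dashed. Most names lie close to 0 (median ratio 0.03), Paneth cell genes such as Defa24 and Ang4 lie lowest, and immunoglobulin constant genes such as Igha and Ighg2b lie above the threshold.

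The non-polyp libraries were nearer to each other than any other pair of the 4. Among 14561 protein-coding names at 1 TPM in any library, 328 passed the threshold between them, with a median absolute ratio of 0.15. The library labelled KO polyp differed from KO non-polyp tissue in 1543 names and from WT non-polyp tissue in 1553, and the WT polyp library differed from each of the other 3 in 3499 to 3735. In the polyp pair, 5.06% of all names were higher and 4.29% lower in KO. Of the names higher in non-polyp tissue, 148 (35.7% of them, 5.36% of those higher in polyps) were also higher in polyps. Of the names lower, 123 (35.4%, 5.25% of those lower in polyps) were also lower there. All names include those under 1 TPM, which cannot be called, whereas every name called in non-polyp tissue reached 1 TPM. The 5.06% and 4.29% are therefore too low a base for this overlap. Another 96 names were called in opposite directions in the 2 tissues, and 228 of the higher and 167 of the lower names were not called in polyps. The study describes non-polyp tissue as taken near the polyps of the pooled mice, so the tissues of a genotype may share animals and the 2 pairs are not taken as independent.

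Paneth cell genes had the lowest median ratio of the 45 gene lists examined. Of 14 genes, 10 were lower and 0 higher in KO tissue, with a list median of -1.82, and their levels summed to 18.6 TPM in KO against 459 TPM in WT tissue. The base for this and every other list count is 1.98% lower and 2.37% higher over all names at 1 TPM. Ang4, an antimicrobial ribonuclease that colonic goblet cells can also make, stood at 7.43 TPM in KO and 272 TPM in WT tissue (ratio -5.02). The alpha-defensin gene Defa24 was listed at 0 in KO and stood at 37.5 TPM in WT tissue. Defa30 (3.86 TPM in WT), Defa22 (2.97 TPM), Defa5 (2.15 TPM) and Defa17 (1.43 TPM) were likewise listed at 0 in KO tissue. Alpha-defensin genes are near-identical copies that share reads, so the split among them is uncertain. The lysozyme gene Lyz1 stood at 8.79 TPM in KO and 101 TPM in WT tissue (ratio -3.38), while its close copy Lyz2, of macrophages, stood at 254 and 290 TPM. Mmp7, the protease that activates mouse alpha-defensins, stood at 0.239 and 14.6 TPM (ratio -3.66), and the lectin gene Itln1 at 2.09 and 20.9 TPM (ratio -2.82). Mptx2, a mucosal pentraxin, was listed at 0 in KO tissue and stood at 1.07 TPM in WT. Of the other 4 members, all defensins, none reached 1 TPM in either library.

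The same genes were examined in the polyp pair. Defa24 reached 487 TPM in the WT polyp library and was listed at 0 in the KO polyp library. Mmp7 stood at 523 TPM in WT polyps against 1.68 TPM in KO polyps. Ang4 and Mptx2 had another order, since their levels in WT non-polyp tissue were above those in WT polyps (226 TPM for Ang4 and 0.302 TPM for Mptx2). Lyz1 reached 170 TPM in the KO and 1168 TPM in the WT polyp library, so KO non-polyp tissue held the least of the 4.

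Epithelial antimicrobial genes outside the Paneth list were mostly not called. Of 18, 3 were lower and 0 higher, with a median of -0.18. Retnlb, a goblet cell protein active against bacteria, stood at 0.848 TPM in KO and 29.7 TPM in WT tissue (ratio -4.05). Pla2g2a, which the annotation calls a polymorphic pseudogene, stood at 2.52 and 26.1 TPM (ratio -2.94). Whether these mice make its product, a secreted phospholipase that kills bacteria, was not measured, so its RNA level is not read as enzyme activity. Cxcl5, a neutrophil attractant of epithelium, stood at 0.23 and 2.84 TPM (ratio -1.64). By contrast Lypd8, which keeps flagellated bacteria from the lining, stood at 12420 TPM in KO and 12130 TPM in WT tissue, and the acute-phase gene Saa1 at 2219 and 1775 TPM. The oxidase gene Duox2 stood at 12.3 and 18.8 TPM and did not pass the threshold, and Reg3b and Reg3g were under 1 TPM in both.

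Genes that were abundant in the WT polyp library were next looked at in the non-polyp pair. A set was taken, after values had been seen, of the 50 protein-coding names with at least 100 TPM in WT polyps and a polyp ratio below -3, so their direction in polyps was fixed by the choice and only the non-polyp pair is read. In non-polyp tissue 25 of the 50 were lower and 0 higher in KO, against 1.98% and 2.37% of names at 1 TPM. Of 13639 protein-coding names at 1 TPM, 189 were lower and 139 higher. The 25 repeat Defa24, Defa22, Defa30, Ang4, Mmp7 and Itln1 of the Paneth list and Cxcl5 of the antimicrobial list, so they are not a separate result for those genes. Of the set, 43 of the 50 ratios were below 0, and the median was -0.999. Their level in WT non-polyp tissue was a median of 4.82% of the WT polyp level, and that in KO non-polyp tissue was 1.96%. Among the 25 that were lower, WT non-polyp tissue held 0.981% to 16.5% of the polyp level (median 2.58%), apart from Ang4 at 120.5%. Choosing names for a high WT polyp level favours low shares of it. The mirror set of 69 names abundant in KO polyps had 3 higher, 1 lower (Lcp1) and a median of 0.03.

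Inhibitors and feedback targets of Wnt signalling were among the 25. Notum, a secreted enzyme that inactivates Wnt proteins, stood at 0.0555 TPM in KO and 8.83 TPM in WT non-polyp tissue (ratio -3.22), beside 418 TPM in WT polyps. Apcdd1 stood at 1.21 and 7.90 TPM (ratio -2.01), Wif1 at 1.42 and 5.95 TPM (ratio -1.53), and Nkd1 at 8.70 and 19.1 TPM (ratio -1.05). All 4 encode Wnt antagonists. Of 24 Wnt target and crypt stem cell genes, 6 were lower (also the transcription factor gene Sp5 and the ligand gene Wnt10a) and 0 higher, with a median of -0.19, whereas 23 of the 24 were lower in KO polyps. Axin2, the general feedback target of the pathway, stood at 27.7 TPM in KO and 28.1 TPM in WT tissue, the stem cell gene Lgr5 at 5.15 and 4.57 TPM, and Ccnd1, of cyclin D1, at 30.3 and 35.2 TPM. The 6 lower genes stood at 1.195 TPM (Wnt10a) to 19.1 TPM (Nkd1) in WT non-polyp tissue. More abundant targets such as Axin2 were near equal. So were some targets within that range, such as Lgr5, Znrf3 (6.26 TPM in KO, 5.84 TPM in WT) and Cd44 (17.1 and 16.9 TPM). Prox1 and Wnt6, also within it, had ratios of -0.95 and -0.77, short of the threshold. Level in WT tissue thus did not separate the lower genes from the others.

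Other members of the 25 belong to other tissues or states. The metallothionein genes Mt4, of stratified epithelium, and Mt3, best known from brain, stood at 0.438 and 3.72 TPM in KO against 26.0 and 11.9 TPM in WT tissue (ratios -4.23 and -1.45), while the general metallothionein genes Mt1 (558 and 448 TPM) and Mt2 (212 and 150 TPM) were not called. Spock2, a matrix proteoglycan, stood at 3.83 and 19.1 TPM (ratio -2.05). Stra6, the cell receptor for retinol-binding protein, stood at 0.111 and 5.19 TPM (ratio -2.48), and was the 1 lower gene of 16 in retinoic acid handling. The basal keratin gene Krt15 stood at 1.00 and 4.90 TPM, and it and Krt13 were the 2 lower genes of 16 squamous epithelium genes, of which 6 reached 1 TPM and had ratios below 0. The neutrophil calcium-binding protein gene S100a9 stood at 0.503 and 3.74 TPM (ratio -1.66). Other members of the 50 were near equal in the pair, among them Cldn4 (20.7 and 25.3 TPM), Phlda1 (33.9 and 34.6 TPM) and Sox4 (17.5 and 19.7 TPM). The plot of the 25 lower genes sets their levels beside those of polyps.

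**Figure D2:**
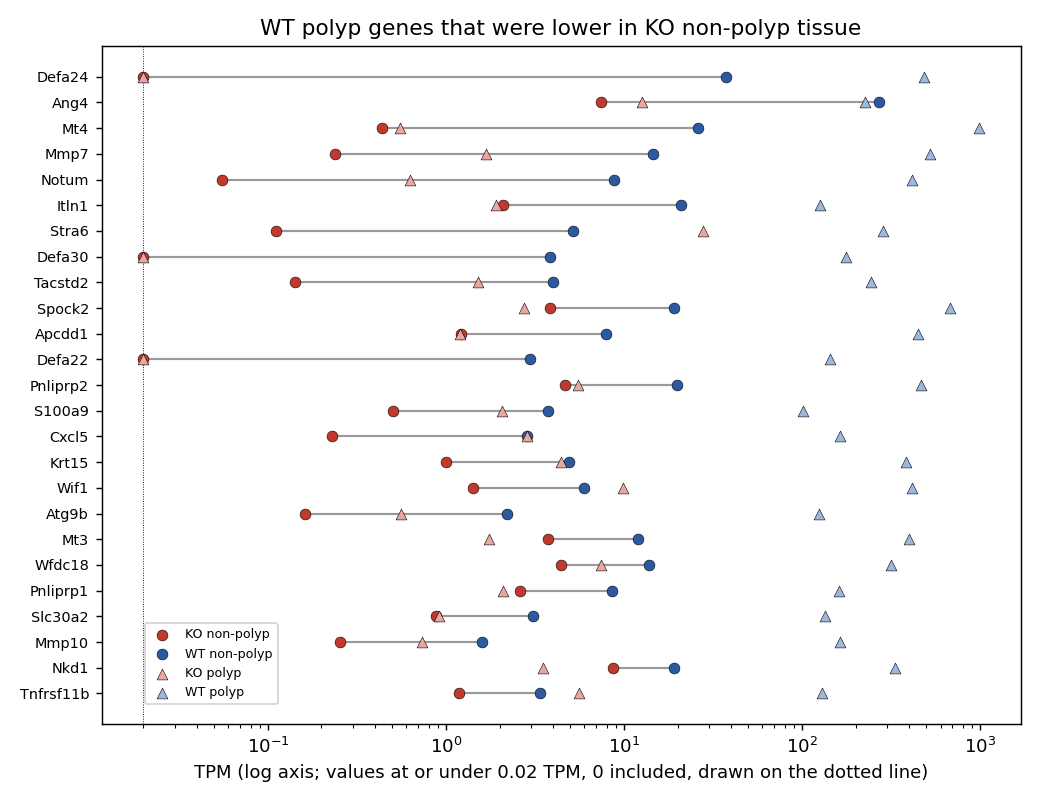
TPM on a log axis of the 25 genes of the set that were lower in KO non-polyp tissue, 1 row per gene and 1 mark per library, with circles for non-polyp and triangles for polyp tissue and values at or under 0.02 TPM on the dotted line. WT non-polyp levels lie far below WT polyp levels in each gene but Ang4, which the choice of genes abundant in WT polyps favours. That KO non-polyp levels lie lower still is fixed by showing only the lower genes.

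Fat cell genes were lower in KO tissue, and here the WT non-polyp library stood alone. Of 23 adipocyte genes, 7 were lower and 0 higher, with a median of -0.82. Cfd, the adipokine adipsin, stood at 1.81 TPM in KO and 89.6 TPM in WT tissue (ratio -5.01), and was 0.13 TPM in KO polyps and listed at 0 in WT polyps. Car3, a carbonic anhydrase of fat and muscle, stood at 1.23 and 41.7 TPM (ratio -4.26). Adipoq, of adiponectin, stood at 0.0266 and 11.1 TPM (ratio -3.56), and Retn, of resistin, at 0.132 and 6.18 TPM (ratio -2.67), and both were listed at 0 in both polyp libraries. Cidec and Plin1, of the lipid droplet, and Thrsp, of fat synthesis, were the other 3. In each of the 7, the polyp libraries of both genotypes lay nearer to KO than to WT non-polyp tissue. Fat genes with other sources in the colon differed less: Fabp4, also of blood vessels, stood at 53.3 and 103 TPM (ratio -0.93), Lpl at 8.51 and 16.98 TPM, and Pparg, which colonocytes use, at 27.8 and 25.4 TPM. Whether the fat genes have a part in any other difference was not tested.

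Red cell genes were in part lower in both KO libraries. Of 9 erythroid genes, 5 were lower and 0 higher, with a median of -1.05. Of the 7 that reached 1 TPM, 1 had a ratio above 0 (0.85). In polyps, 5 of the 9 were lower and 1 was higher in KO. The adult beta-globin gene Hbb-bs stood at 35.5 TPM in KO and 151 TPM in WT non-polyp tissue (ratio -2.06), and at 32.7 and 210 TPM in polyps. Hbb-bt stood at 8.94 and 25.2 TPM, Hba-a1 at 26.4 and 59.7 TPM, Hba-a2 at 19.6 and 47.0 TPM, and Alas2, of haem synthesis in red cells, at 0.963 and 3.07 TPM. The 4 globin levels are those of near-identical gene pairs, so the split within a pair is uncertain. All 5 were low in both KO libraries and high in both WT libraries. Vessel wall genes did not follow them in size: of 13 endothelial genes 0 were called, with a median of -0.15, although all 13 ratios were below 0.

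Interferon-induced genes were divided. Of 30, 6 were lower and 0 higher in KO tissue, with a median of -0.36, and 12 were lower in KO polyps. Usp18, which removes the ubiquitin-like protein ISG15 and restrains interferon signalling, stood at 1.23 TPM in KO and 6.03 TPM in WT tissue (ratio -1.65). Ifit1, which binds viral RNA, stood at 2.10 and 7.41 TPM (ratio -1.44), and Isg15 itself at 6.19 and 17.4 TPM (ratio -1.35). Ifit3b (ratio -1.23), the RNA sensor gene Oas2 (ratio -1.13) and Ifit2 (ratio -1.08) were the others. In WT polyps all 6 stood above WT non-polyp tissue, with Usp18 at 45.6 TPM and Isg15 at 48.3 TPM. Other interferon-induced genes were near equal: Oas1a stood at 45.4 TPM in KO and 44.3 TPM in WT tissue, and Ifit1bl1 at 135 and 131 TPM. The chemokine gene Cxcl10 stood at 7.69 and 4.19 TPM, in the other direction. With a pseudocount of 5 TPM none of the 6 passed the threshold.

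Interferon acts on many of its genes, though not all, through a promoter element of repeated GAAA. Promoters were therefore read for the list, to set the called genes beside those that were near equal. RefSeq promoters (GRCm38.p6, 250 bases before to 50 bases after the start) were searched on both strands for GAAA and GAAA separated by any 2 bases, and overlapping matches were counted. Of 27025 symbols with a promoter, 1079 (3.99%) held it, and of the 30 interferon-induced genes 22 had a promoter in the table and 14 of these held it. Among the 6 lower genes 4 were in the table and 3 of them held it (not Ifit2), and among the others 11 of 18 did. The element is shown in capitals, read 5′ to 3′ on the strand of the gene, where TTTC marks the opposite strand, first for the 3 lower genes (Ifit1 at chr19:34640770-34640809, plus strand; Isg15 at chr4:156200866-156200905, minus strand; Ifit3b at chr19:34607754-34607793, plus strand) and then for 2 that were near equal (Oas1a at chr5:120907515-120907554 and Ifit1bl1 at chr19:34602048-34602087, both minus strand).
Ifit1: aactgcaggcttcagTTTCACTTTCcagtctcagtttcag
Isg15: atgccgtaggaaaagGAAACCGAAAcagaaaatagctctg
Ifit3b: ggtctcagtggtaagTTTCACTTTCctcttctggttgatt
Oas1a: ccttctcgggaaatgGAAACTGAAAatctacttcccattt
Ifit1bl1: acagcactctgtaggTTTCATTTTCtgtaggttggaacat
The match shown lies 104 bases before the start in Ifit1, 72 in Isg15, 188 in Ifit3b, 14 in Oas1a and 104 in Ifit1bl1. Further matches lie 85 bases before the start in Ifit1, 78 and 66 in Isg15, 154 in Ifit3b and 20 in Oas1a, and 23 before another start of Ifit1bl1, so lower and near-equal genes alike hold it. The window of Ifit3b is letter for letter that of its neighbour Ifit3, 156 bases before the start there, and Ifit3 had a ratio of -0.53. These paralogs share reads, and the split between them is uncertain. A match is a description of letters and not of a bound site.

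Antibody genes were the main group higher in KO tissue. Of 12 immunoglobulin constant genes, 6 were higher and 0 lower, with a median of 0.82, and their levels summed to 7863 TPM in KO against 3394 TPM in WT tissue. Igha, of IgA, stood at 2829 TPM in KO and 1203 TPM in WT tissue (ratio 1.23), and Igkc, of the kappa light chain, at 4481 and 1926 TPM (ratio 1.22). The lambda gene Iglc2 stood at 240 and 35.6 TPM (ratio 2.72) and the IgG gene Ighg2b at 73.4 and 9.60 TPM (ratio 2.81). Ighg3 (17.8 and 4.16 TPM) and Ighg2c (8.05 and 2.02 TPM) were higher as well. Not every isotype was: Ighm, of IgM, stood at 99.5 and 74.2 TPM, Ighg1 at 5.45 and 11.8 TPM (ratio -0.99) and Iglc1 at 68.0 and 91.8 TPM.

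Plasma cell genes were partly higher. Of 17, 3 were higher and 0 lower, with a median of 0.42. Jchain, which joins IgA and IgM into polymers, stood at 369 TPM in KO and 110 TPM in WT tissue (ratio 1.73), Mzb1, of antibody folding, at 18.0 and 7.81 TPM (ratio 1.11), and Derl3, of protein quality control, at 5.57 and 2.13 TPM (ratio 1.07). The survival receptor gene Tnfrsf17 (BCMA) stood at 3.74 and 1.39 TPM (ratio 0.98) and the surface marker gene Sdc1 at 40.8 and 20.4 TPM (ratio 0.96), both short of the threshold. Genes of the secretory machinery that many cells use, such as Xbp1 (199 and 186 TPM), were near equal. B cells before this stage did not follow: of 15 genes 0 were called, with a median of -0.34, and Ms4a1, of CD20, stood at 3.50 TPM in KO and 4.71 TPM in WT tissue. In the KO polyp library Ms4a1 reached 107 TPM.

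Variable segments of the antibody genes showed which chains carried the difference. Kappa segments (Igkv) summed to 2113 TPM in KO and 861 TPM in WT tissue, a linear ratio of 2.45, and heavy chain segments (Ighv) to 1277 and 566 TPM, a linear ratio of 2.26. Of 75 kappa segments at 1 TPM, 29 were higher and 11 lower, and of 74 heavy chain segments 27 were higher and 13 lower, so the difference was not shared by all. The 5 most abundant kappa segments took 65.3% of the kappa sum in KO and 43.1% in WT tissue, and the 5 most abundant heavy chain segments took 49.2% and 32.3%. Igkv1-117 led in both, at 586 TPM in KO and 177 TPM in WT tissue. Chosen after their values were seen, Igkv4-80 stood at 180 and 1.604 TPM, Igkv2-109 at 141 and 5.37 TPM, Ighv4-1 at 257 and 23.7 TPM, and Iglv2 at 151 and 10.3 TPM, while Iglv1 stood at 58.2 and 62.5 TPM. Ighv1-59, the leading heavy chain segment of WT tissue, stood at 24.4 TPM in KO and 58.7 TPM in WT. Segments share stretches of sequence, so the level of a single one is uncertain. T cell receptor alpha and beta segments summed to 3.59 TPM in KO and 5.11 TPM in WT tissue.

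Most genes on the goblet cell, shared epithelial and absorptive colonocyte lists were close to equal. Retnlb and Ang4, given above under other lists, can also come from goblet cells and were lower (ratios -4.05 and -5.02). Of 14 goblet cell genes 0 were called (median -0.16): Zg16 stood at 5612 TPM in KO and 4561 TPM in WT tissue, and Spink4, with the largest difference, at 747 and 1404 TPM (ratio -0.91). Of 12 genes shared by all epithelium 0 were called, though 11 had ratios above 0 (median 0.11). Of 21 absorptive colonocyte genes 1 was higher and 0 lower (median 0.26). That gene was Aqp8, a water channel of the surface colonocyte, at 782 TPM in KO and 365 TPM in WT tissue (ratio 1.10). Slc26a3, the chloride exchanger, stood at 521 and 435 TPM, and the carbonic anhydrase gene Car4 at 1155 and 875 TPM. Of 14 genes of fatty acid oxidation and ketogenesis 2 were higher and 0 lower (median 0.22). Ppara, a nuclear receptor that controls fatty acid oxidation, was 1 of the 2, at 7.05 TPM in KO and 2.55 TPM in WT tissue (ratio 1.18). Of 20 xenobiotic enzyme genes 0 were called, and 13 of the 14 at 1 TPM had ratios above 0 (median 0.18 over the 20).

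Few of the genes that the study followed in polyps were called in non-polyp tissue. Of the study's 9 cytokines and chemokines, 4 reached 1 TPM, and a name under 1 TPM in both libraries cannot pass the threshold. Of the 9, 1 was lower and 0 higher. The lower gene, the neutrophil attractant gene Cxcl2, stood at 0.0368 TPM in KO and 1.93 TPM in WT tissue. Il1b stood at 3.12 and 3.85 TPM, Tnf at 1.65 and 2.43 TPM, and Il23a at 0.547 and 0.632 TPM. The study chose these genes on these libraries, so they are no independent evidence of a direction. Of 16 genes of prostaglandin E2, 1 was lower (Pla2g2a, the polymorphic pseudogene given above). Ptgs2, of cyclooxygenase-2, stood at 1.75 TPM in KO and 1.67 TPM in WT tissue. Of 10 genes of interleukin-22 and interleukin-18, 0 were called: Il22ra2, of the soluble inhibitor IL-22BP, stood at 5.98 and 4.81 TPM, beside 57.0 TPM in the KO and 0.425 TPM in the WT polyp library, and Il22 itself was listed at 0 in both non-polyp libraries. The regulatory T cell gene Foxp3 stood at 0.55 and 0.50 TPM.

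Immune cell lists other than plasma cells held few called genes, and a name under 1 TPM in both libraries could not be called. Reaching 1 TPM were 14 of the 21 T cell genes and 11 of the 20 neutrophil and suppressor cell genes. Of the 17 mast cell and eosinophil genes 6 did so, and of all names at 1 TPM 1.98% were lower. Of 21 T cell genes 1 was lower (the chemokine receptor gene Ccr6), of 20 neutrophil and suppressor cell genes 1 (S100a9), and of 17 mast cell and eosinophil genes 2, the mucosal mast cell protease genes Mcpt1 (1.59 TPM in KO, 9.88 TPM in WT) and Mcpt2 (0.373 and 4.62 TPM). The mast cell receptor gene Kit, which pacemaker cells of the gut wall also carry, stood at 33.6 and 36.9 TPM. Of 19 macrophage genes, 17 dendritic cell genes and 11 genes of MHC class II presentation, 0 were called, with medians of -0.17, -0.05 and 0.26. Smooth muscle (15 genes), enteric neurons and glia (20), fibroblasts and matrix (18), gut position (19) and proliferation (19) had 0 called genes each, with medians between -0.20 and 0.10. Of 45 lists, 20 held a called member and 25 held none. The plot of list members sets the main ones beside each other.

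**Figure D3:**
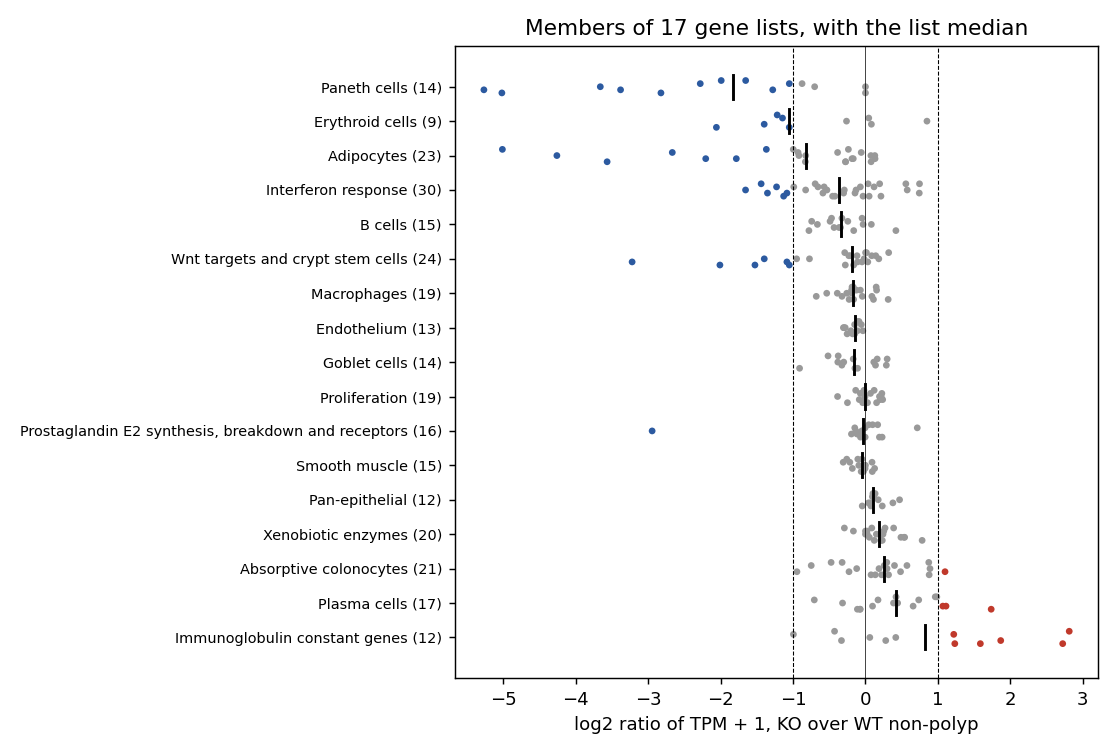
Log2 ratio of TPM + 1, KO minus WT non-polyp tissue, for the members of 17 of the gene lists, 1 point per gene (number of genes in brackets), with the list median as a black bar and the threshold dashed. Paneth, erythroid and adipocyte genes have the lowest medians of the 17 (-1.82, -1.05 and -0.82), and immunoglobulin constant genes the highest (0.82).

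Over 9006 annotated names that reached 10 TPM, the 20 highest and 20 lowest ratios were read across all 4 libraries. Each polyp library was placed with the non-polyp library to which it lay nearer on the log2 scale. Of the 20 highest, 7 were divided by genotype, with KO polyps near KO and WT polyps near WT, 5 had WT non-polyp tissue apart from the other 3, 5 had KO non-polyp tissue apart, and 3 were crossed. Of the 20 lowest, the numbers were 10, 5, 3 and 2 in the same order. Over all called names they were 157, 100, 113 and 45 of the 415 higher, and 111, 91, 89 and 56 of the 347 lower.

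Among the highest, Neu4, a sialidase of mucosal cells, stood at 12.5 TPM in KO and 0.0499 TPM in WT non-polyp tissue (ratio 3.68), and at 6.65 and 0.0256 TPM in polyps. Apol10a, an apolipoprotein L gene, stood at 12.6 and 1.97 TPM (ratio 2.19), and at 12.0 and 0.451 TPM in polyps. Both were high in each KO library and low in each WT library. Lpp, of cell adhesion (29.0 and 3.67 TPM), and Thrb, a thyroid hormone receptor (10.3 and 1.27 TPM), were instead high in KO non-polyp tissue alone, with at most 2.72 TPM in polyps of either genotype. The chromatin remodeller gene Chd9 (12.4 and 2.56 TPM) was low in WT non-polyp tissue alone. Gas7 stood at 10.2 and 1.36 TPM, and at 12.8 and 4.34 TPM in polyps, so both WT libraries lay more than 1 log2 unit below both KO libraries, although WT polyps lay nearer to KO than to WT non-polyp tissue. Sarnp, of mRNA export, stood at 35.7 and 4.13 TPM here (ratio 2.84) but at 5.05 and 46.8 TPM in polyps, the opposite order.

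Among the lowest beyond the groups above, Pex14, of the peroxisome import complex, stood at 4.23 TPM in KO and 32.5 TPM in WT tissue (ratio -2.68), with 30.8 and 41.0 TPM in polyps, so that KO non-polyp tissue was low alone. Mpc2, of the mitochondrial pyruvate carrier, stood at 26.1 and 115 TPM (ratio -2.09) but at 109 and 14.7 TPM in polyps. Nov, a matrix-associated growth regulator (5.36 and 23.9 TPM), and Camk2b, a calcium-dependent kinase (3.01 and 14.2 TPM), were high in WT non-polyp tissue alone. The plot of the named genes shows these patterns by library.

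**Figure D4:**
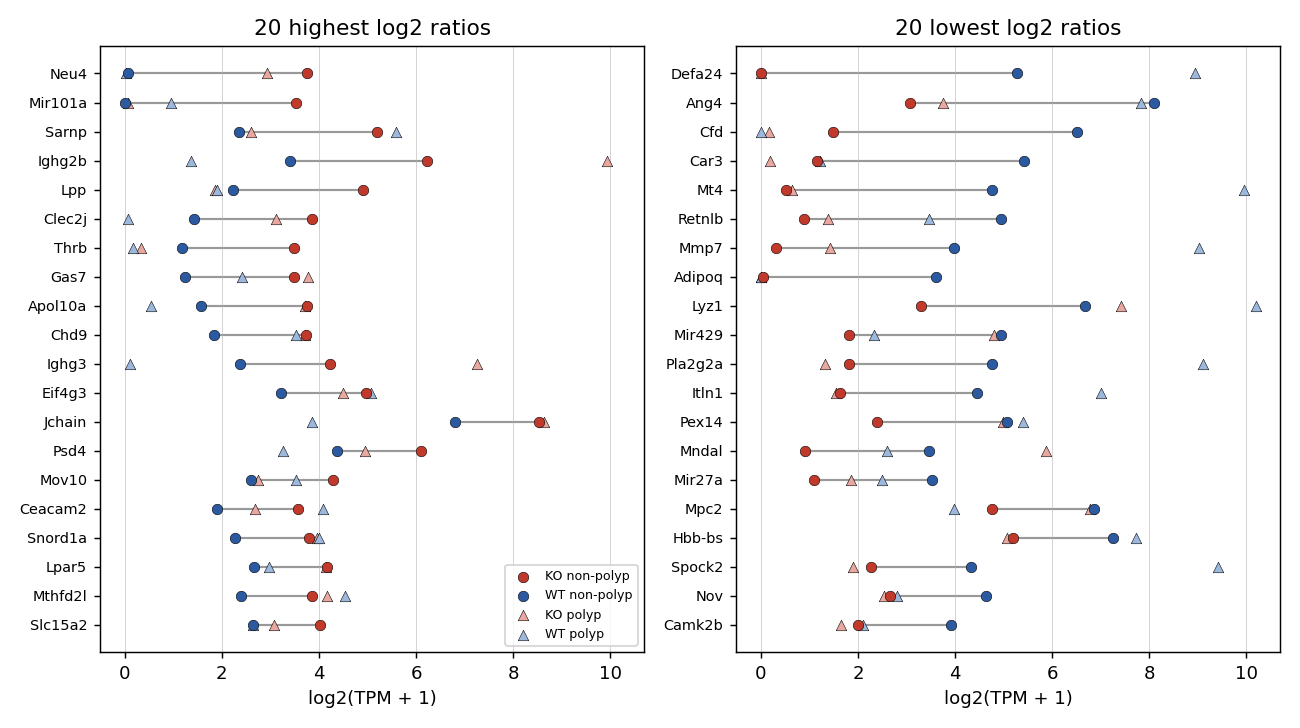
Levels on the log2(TPM + 1) scale of the 20 genes with the highest (left) and the 20 with the lowest (right) ratio, with circles for non-polyp and triangles for polyp libraries and a line joining KO and WT non-polyp tissue. Neu4 and Apol10a are divided by genotype, Cfd, Car3 and Adipoq are high in WT non-polyp tissue alone, and Sarnp and Mpc2 change order between tissues.

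Among these 40 names, 3 were microRNA genes, and their mature sequences are shown because the tables give only the level of the hairpin gene. TPM of so short a gene does not measure the mature microRNA. Mir101a stood at 10.6 TPM in KO and was listed at 0 in WT tissue, Mir429 stood at 2.52 and 29.9 TPM (ratio -3.13), and Mir27a at 1.15 and 10.6 TPM (ratio -2.43). Their RefSeq sequences (GRCm38.p6), with the seed of bases 2 to 8 in capitals, belong to different seeds.
mmu-miR-101a-3p: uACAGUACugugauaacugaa
mmu-miR-429-3p: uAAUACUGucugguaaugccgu
mmu-miR-27a-3p: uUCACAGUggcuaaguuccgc
The hairpin genes lie at 3 places, Mir101a and Mir429 on chromosome 4 and Mir27a on chromosome 8. Neighbouring genes of the same clusters were read for Mir429 and Mir27a. Beside Mir429, Mir200a stood at 0.0323 TPM in KO and 0.0343 TPM in WT tissue and Mir200b was listed at 0 in both, too low to show a difference. Beside Mir27a, Mir23a stood at 1.91 and 1.02 TPM and Mir24-2 at 3.87 and 1.67 TPM, in the other direction.

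The surroundings of the targeted gene were read last. As background, genes near a targeted locus can keep the strain of the embryonic stem cells through backcrossing. Within 2 Mb of Clec7a, 48 names reached 1 TPM, of which 5 were higher and 4 lower in KO tissue, Clec7a included. Over all names at 1 TPM the shares were 2.37% higher and 1.98% lower. BC064078, a transcribed pseudogene that the naming rule leaves out of the 20 for its accession-type name, stood at 39.0 TPM in KO and 0.566 TPM in WT tissue (ratio 4.68) and at 30.3 and 1.39 TPM in polyps. The lectin pseudogene Clec2j stood at 13.5 and 1.69 TPM (ratio 2.43). Gm44216, a pseudogene nested in the span of Clec2j, stood at 25.3 and 2.78 TPM (ratio 2.80). The lectin-like receptor gene Klra17 stood at 2.19 and 0.46 TPM (ratio 1.13). Gm44215 was the other higher name, and Tulp3, Gm44009 and Klrb1b were the other lower names. Lectin genes of this cluster resemble each other, and reads may be split among them. A second measure, added after values were seen, asked that both KO libraries lie more than 1 log2 unit to the same side of both WT libraries. It held for 111 of 17331 names at 1 TPM (0.64%, antigen receptor segments left out), for 4 of 48 within 2 Mb of Clec7a (8.33%) and for 7 of 200 within 10 Mb (3.5%). Without Clec7a itself, the counts were 3 of 47 (6.38%) and 6 of 199 (3.02%), and the 3 include the overlapping Clec2j and Gm44216. The 7 include Lpar5, a lysophosphatidic acid receptor gene (16.95 and 5.33 TPM), and Apobec1, of RNA editing (78.4 and 36.6 TPM). Chromosome 6 as a whole had 18 of 901 names (1.998%), and the other autosomes and X had 0.151% to 1.38%. Strain of origin was not measured, and its part in these differences was not tested.

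**Figure D5:**
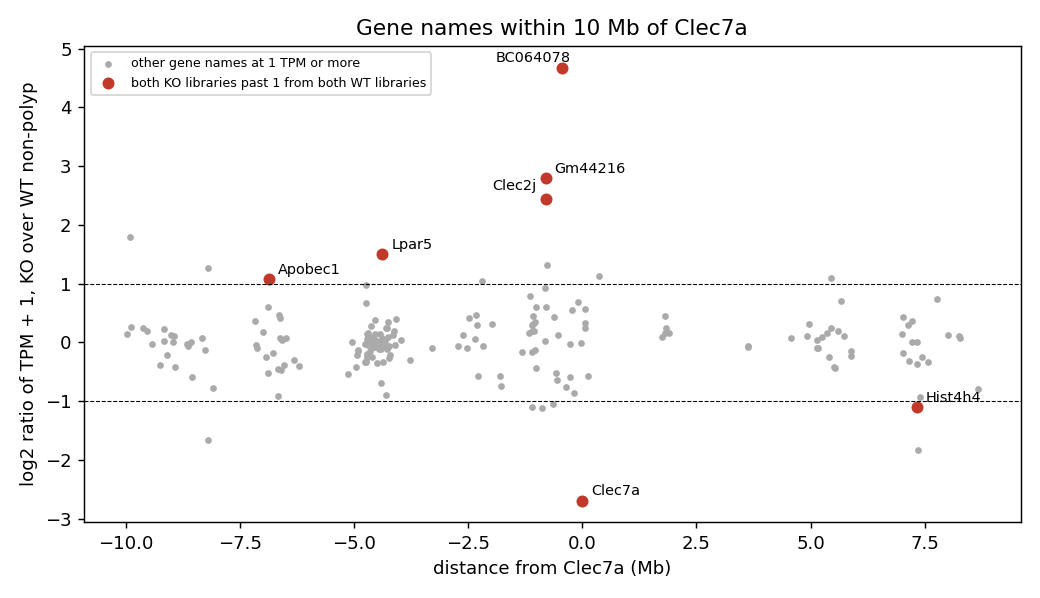
Log2 ratio of TPM + 1, KO minus WT non-polyp tissue, against distance from Clec7a in Mb, for names at 1 TPM or more within 10 Mb, with the 7 names whose KO libraries both lie past 1 log2 unit from both WT libraries in red. Clec7a lies at -2.69 and BC064078 at 4.68, and 4 of the 7 red names lie within 2 Mb.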

How the data were processed

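Per the labels and the study's methods, the authors extracted total RNA and, in Galaxy, used Trimmomatic for trimming, HISAT2 for alignment to GRCm38 (mm10) and StringTie for assembly. Versions are not given in the sources used here. The sources name different library kits. The values used are TPM of reference genes, deposited by the authors. The KO non-polyp table has another format: it holds TPM and a ratio to Gapdh, which was not used, and 26 names are not in it. Whether it came from the same run of the pipeline as the others is not known, and it gives the KO side of every non-polyp ratio. The other tables also list assembled loci, which were left out, and their FPKM and coverage were not used. The KO non-polyp table lists 0 assembled loci, yet its TPM summed to 889323 and not to 1000000. What the rest of its TPM covered is not known.

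TPM was summed per gene name and the log2 ratio of TPM + 1 was taken, with a threshold of 1 in either direction. No test was run, since each group has 1 library. The rule named Clec7a, the 20 highest and 20 lowest ratios among annotated names whose higher library reached 10 TPM (without predicted names, mitochondrial and ribosomal protein genes, sex-linked genes and antigen receptor segments), genes named by the study, members of lists of up to 15, up to 8 members at 5 TPM or more of longer lists, and called genes within 2 Mb of Clec7a. Other members shown because they were near equal were chosen after their values were seen. The members and lists were chosen with earlier results of these data known. Some genes of the lists are not reported here. Annotation came from GENCODE M21 and sequences from RefSeq. The procedure was tested on simulated data. Other settings tried were a pseudocount of 0.1 or 5 TPM, names at 5 TPM or more, protein-coding names alone and 4 scalings. The work used Python 3.11.15, pandas 2.3.3, numpy 2.4.6 and matplotlib 3.10.9.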

Additional observations from a re-analysis of the deposited data

Results flagged for a closer look

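For 7 named genes, KO and WT differed past the threshold in opposite directions in non-polyp tissue and in polyps, and with 1 library per group the difference between the tissues was not tested. Mir429, a microRNA gene of the miR-200 family, had a log2 ratio of -3.13 in non-polyp tissue and 2.47 in polyps. Mndal, an interferon-inducible gene, had -2.55 (0.884 TPM in KO, 10.0 TPM in WT) and 3.26 in polyps. Mpc2, of the mitochondrial pyruvate carrier, had -2.09 and 2.81. Alox5ap, of leukotriene synthesis, had -1.09 (3.33 and 8.23 TPM) and 1.06, and Ccr6, a chemokine receptor of lymphocytes, had -1.03 (0.582 and 2.23 TPM) and 3.80. Ceacam2, an adhesion gene, had 1.67 (10.9 and 2.73 TPM) and -1.40, and Sarnp, of mRNA export, had 2.84 and -2.98. In polyps, Mndal stood at 57.2 TPM in KO and 5.08 TPM in WT, Alox5ap at 18.2 and 8.25 TPM, Ccr6 at 16.6 and 0.264 TPM, and Ceacam2 at 5.44 and 16.02 TPM. Mndal and Ceacam2 belong to families of similar genes that can share reads.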

How the results depend on the processing

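Each value rests on 1 pooled library per group, so no replicate could be left out. No paired analysis was possible because each group has 1 library and the result comes from no test. The counts depended on how scarce genes were treated. The 415 higher and 347 lower names became 2491 and 2083 with a pseudocount of 0.1 TPM, 96 and 76 with one of 5 TPM, 184 and 154 at 5 TPM or more, and 139 and 189 among protein-coding names. With 0.1 TPM and names at 1 TPM or more, a choice made after seeing the data, they were 734 and 668. Lists with a called member numbered 20, 31 with 0.1 TPM and 12 with 5 TPM. The Paneth median of -1.82 was -3.74 with 0.1 TPM, -0.59 with 5 TPM, -3.66 at 5 TPM or more and -4.72 under the later choice, and the erythroid median of -1.05 was -0.44 with 5 TPM. Of the 50 WT polyp genes, 25 were lower, 9 with 5 TPM and 15 at 5 TPM or more. Of 90 named genes past the threshold, 33 lost the call with 5 TPM, the 6 interferon-induced genes among them. Under each of the 4 other scalings Ighg1 was called lower. None of the 90 genes changed sign. The median over names at 1 TPM, 0.03, was -0.017, -0.0055 and -0.00074 under 3 of the scalings.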

Other observations

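A few abundant genes that the naming rule leaves out, or that lie outside the 40, differed in the same way in both tissues, and they are named here after their values were seen. The ribosomal protein gene Rps18 stood at 624 TPM in KO and 2444 TPM in WT non-polyp tissue (log2 ratio -1.97), and at 721 and 2894 TPM in polyps (ratio -2.003). Rps14 stood at 1436 and 479 TPM (ratio 1.58), and at 1813 and 598 TPM in polyps (ratio 1.598). The pseudogene Gm12191 stood at 287 and 9.10 TPM (ratio 4.84), and at 368 and 12.2 TPM in polyps (ratio 4.81). Ribosomal protein genes have many near-identical copies in the genome that share reads, so these levels are uncertain. Tmbim1, a membrane protein gene of cell survival, stood at 50.2 and 146 TPM, and at 43.9 and 200 TPM in polyps. Lpar1, a lysophosphatidic acid receptor gene like Lpar5, stood at 31.9 and 12.7 TPM (ratio 1.26), and at 30.0 and 6.997 TPM in polyps.

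Other abundant genes differed in non-polyp tissue in other ways. Slc37a2, a sugar-phosphate transporter gene, stood at 467 TPM in KO and 192 TPM in WT tissue (ratio 1.28), and at 276 and 5.22 TPM in polyps. Atp5j, of the mitochondrial ATP synthase, stood at 114 and 404 TPM, while both polyp libraries held 329 TPM or more. H3f3a, a histone gene with near-identical copies, stood at 149 and 467 TPM, and at 214 and 281 TPM in polyps.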
